A study of Homo sapiens with 18 samples.

Results

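The comparison set LNCaP cells kept for 24 h in 20 µM baicalein against LNCaP cells labelled untreated, with 3 RNA-seq libraries in each group, which makes 6 of the 18 libraries of the series. Members were chosen by these labels alone, and every gene that passed a filter on low counts entered, 16985 of the 63241 genes listed. LNCaP is a cell line grown from a lymph node metastasis of a human prostate carcinoma. It depends on androgen for growth and secretes prostate-specific antigen. The labels call its genotype wild type, name prostate as the tissue and describe RPMI-1640 medium with fetal bovine serum for all groups. Per the labels' protocols, control wells received the DMSO vehicle alone, so the untreated group is a vehicle control. Baicalein is a flavone from the root of Scutellaria baicalensis. Libraries from LNCaP cells in 10 µM baicalein and in 20 µM genistein, 3 of each and also taken at 24 h, served as further points of reference. Genistein is an isoflavone of soy with the same molecular formula as baicalein. It differs in the carbon of the central ring to which the phenyl ring is joined and in the placing of the hydroxyl groups.

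The 6 libraries held 10710487 to 18445711 counts each. A poly(A) library kit was used that, per its name in the labels, does not mark strand, so reads from overlapping and antisense genes cannot be told apart. Nothing in the labels says whether the libraries of a group came from separate cultures, and p-values then rest on the variation among these libraries alone, part or all of which may be technical. Values are CPM, counts relative to the library's total after scaling by TMM factors, which equalise the typical gene between libraries. A gene is said to have risen or fallen where edgeR's quasi-likelihood test, with Benjamini-Hochberg adjustment over all 16985 genes, gave an adjusted p under 0.05. In bulk samples fewer cells of a type and less RNA per cell cannot be told apart.

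Several systems that this line is known for recur in the lists below. Androgen signalling, together with the lineage factors HOXB13 and FOXA1, keeps prostate epithelium in its luminal secretory state and drives KLK3, KLK2 and TMPRSS2. Mitochondrial DNA encodes subunits of the respiratory chain and the ribosomal RNAs of the organelle, and is read as long transcripts from both strands that are then processed into single RNAs. Metal and heat stress each act through a dedicated factor (MTF1 and HSF1) that binds short elements in the promoters of metallothionein and chaperone genes, and E2F factors bind sites in the promoters of replication genes.

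Against the untreated libraries, 9708 genes were called, 57.2% of those tested, of which 4992 (29.4%) were higher and 4716 (27.8%) were lower in 20 µM baicalein. Among the called genes 2728 rose and 2795 fell by more than 2-fold, and 386 rose and 284 fell by more than 8-fold. The 3 treated and 3 untreated libraries did not overlap for 10338 of the 16985 genes tested, 9268 of them called. Lack of overlap was thus common and does not set a single gene apart. The median log2 fold change of all genes tested was 0.038. Where libraries were scaled by their totals alone, that median was -0.255 and the calls split into 3286 higher and 6215 lower, so 34.6% of calls were higher in place of 51.4%. Changes below are relative to the TMM scaling, and where totals alone moved a list's count of rises or falls by more than 1.5 times, both counts are given.

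**Figure D1:**
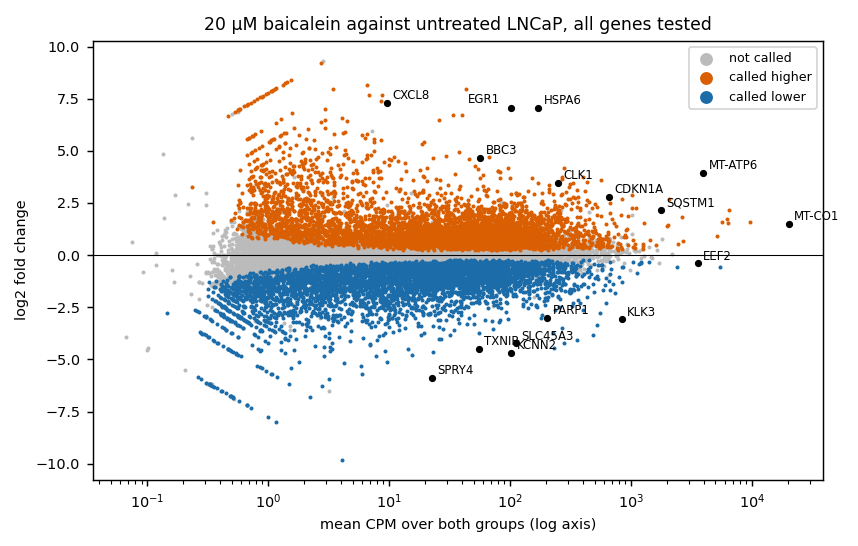
Log2 fold change of 20 µM baicalein over untreated (vertical axis) against mean CPM over both groups (horizontal log axis) for each of the 16985 genes tested. Orange points were called higher (4992), blue called lower (4716) and grey not called, and the labelled black points are genes described in the text, among them SPRY4 and TXNIP at the lower edge and EGR1 and HSPA6 at the upper edge.

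Mitochondrially encoded genes took a larger share of the counts in 20 µM baicalein than in any other group. They made up 4.65%, 5.36% and 5.25% of the counts of the untreated libraries and 10.5%, 14.5% and 12.4% of the treated ones. The treated group thus stood at 12.5% ± 1.97 (SD, n = 3) against 5.09% ± 0.38 (SD, n = 3), a difference of 7.38 percentage points. The groups did not overlap, and a two-sided exact permutation test gave p = 0.1, which is the smallest that 3 libraries against 3 allow. In 10 µM baicalein the share was 5.54% ± 0.57 and in 20 µM genistein it was 5.62% ± 0.61 (SD, n = 3 each). Messenger RNAs alone held 3.82% of the counts in untreated and 9.38% in treated libraries, with the ribosomal RNAs left out. Wilson 95% intervals on each library's share covered counting error only and were at most 0.0394 points wide.

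The increase was not the same for all mitochondrial genes. MT-ATP6, a subunit of the proton channel of ATP synthase, stood at 461, 494 and 513 CPM in the untreated libraries and at 6952, 8136 and 7323 CPM in the treated ones. Its 15.3-fold rise (log2 fold change 3.93 ± 0.13 SE, adjusted p = 2.1e-10) was the largest of the 13 mRNAs. MT-ATP8, which shares a transcript and a short overlap with MT-ATP6, rose 2.63-fold, from 1100 to 2896 CPM. How reads were split between MT-ATP6, MT-ATP8 and the nuclear copy MTATP6P1 is uncertain, and so is the size of the MT-ATP6 rise. MT-ND2, a core subunit of complex I, rose 4.55-fold from 2345 ± 214 to 10664 ± 1076 CPM (SD, n = 3). MT-CO2 rose 3.32-fold, MT-ND1 3.02-fold, MT-ND4 2.96-fold, MT-CYB 2.95-fold, MT-CO1 2.82-fold, MT-ND4L 2.71-fold and MT-ND3 2.36-fold. MT-CO3 rose less, 1.88-fold, and MT-ND5 1.46-fold, from 2001 ± 129 to 2915 ± 350 CPM. MT-ND5 was not called when libraries were scaled by totals alone (log2 fold change 0.255). The ribosomal RNAs MT-RNR1 and MT-RNR2 rose 3.6-fold and 2.93-fold.

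Counts of MT-ND6, the mRNA of the opposite strand, went the other way. Without strand, reads of MT-ND6 and of RNA antisense to it cannot be told apart. RNA without a poly(A) tail is also not covered by the kit. MT-ND6 held 101, 100 and 112 CPM in untreated and 53.5, 71.7 and 48.1 CPM in treated libraries, which do not overlap (1.81-fold lower, adjusted p = 0.000336). Its mean was also low in 10 µM baicalein, at 57.5 CPM, and in 20 µM genistein, at 62.5 CPM. The difference between 20 and 10 µM baicalein was 0.01 on the log2 scale with an adjusted p of 0.97, so for this gene no step between the doses was detected while the other 12 mRNAs were higher at 20 µM than at 10 µM. Copies of mitochondrial sequence in the nuclear genome can take some of these reads. MTND2P28 was listed at 406 CPM untreated and 1478 CPM treated, MTATP6P1 at 326 and 928 CPM and MTCO1P12 at 4.94 and 16.8 CPM, and reads of these copies and of their mitochondrial counterparts are uncertain.

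**Figure D2:**
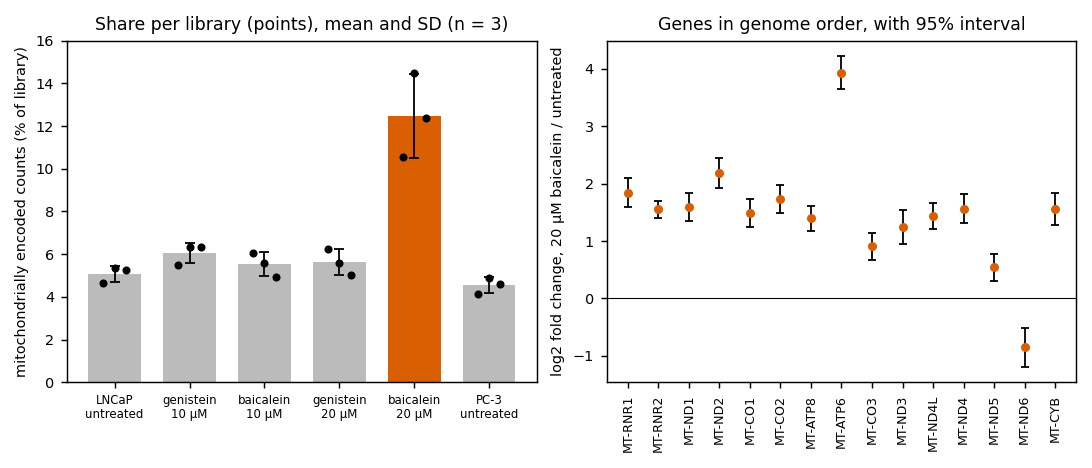
Left, share of each library's counts from mitochondrially encoded genes in percent (points), with the group mean as a bar from 0 and the SD as an error bar (n = 3); 20 µM baicalein (orange) stands at 12.5% and the other groups between 4.55% and 6.05%. Right, log2 fold change of 20 µM baicalein over untreated for each mitochondrial gene in genome order with its 95% interval. MT-ATP6, whose reads are uncertain, is the highest at 3.93 and MT-ND6 the only one below 0.

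Genes of the nucleus that serve mitochondria did not move as a block. Of 22 genes for mitochondrial transcription and RNA handling 7 rose and 4 fell, with a median of 0.23, against 5 and 7 with totals alone (median -0.055). The main counts are 31.8% higher and 18.2% lower, beside 29.4% and 27.8% of all genes tested. SUPV3L1, the helicase of the mitochondrial RNA degradosome, rose from 49.2 ± 3.65 to 149 ± 16.1 CPM, and its partner PNPT1, the exoribonuclease, fell (log2 fold change -0.64). POLG2, an accessory subunit of the mitochondrial DNA polymerase, rose 3.37-fold and TEFM, the mitochondrial transcription elongation factor, 1.83-fold. TFB1M, which methylates mitochondrial ribosomal RNA, fell 1.65-fold. The polymerase POLRMT and the packaging factor TFAM were not called (0.21 and 0.38). Of 34 nuclear subunits of complex I 11 rose and 5 fell (median 0.21), and with totals alone 1 rose and 11 fell (median -0.083). The main counts are 32.4% higher and 14.7% lower, beside the same shares of all genes. Nuclear subunits of the other respiratory complexes and of ATP synthase, with cytochrome c, gave 16 rises and 5 falls of 39. There were 6 rises and 8 falls with totals alone, and 8 rises and 5 falls with the trend on GC content and length removed. The catalytic ATP synthase subunits ATP5F1A and ATP5F1B were among the falls, at -1.11 and -1.03 on the log2 scale, as were SDHA and SDHC of succinate dehydrogenase, at -0.55 and -0.72.

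**Figure D3:**
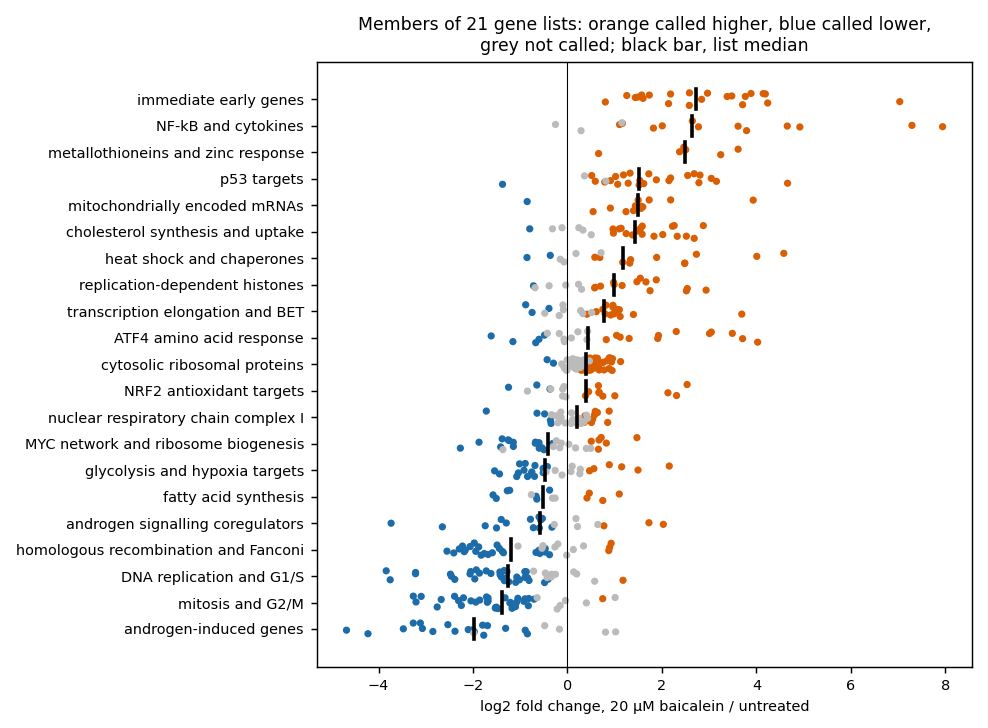
Log2 fold change of 20 µM baicalein over untreated (horizontal axis) for each tested member of 21 gene lists (vertical axis), sorted by the list median (black bar). Orange members were called higher, blue lower and grey not called; all 22 immediate early genes lie to the right of 0, and no androgen-induced gene was called higher.

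Androgen-induced genes were lower in treated cells. Of the 24 on the list 23 were tested, none rose and 18 fell, with a median of -1.986. SLC45A3, the prostein gene, held 204, 214 and 223 CPM in untreated and 9.18, 12.1 and 13.1 CPM in treated libraries, an 18.7-fold fall with no overlap. The kallikrein KLK2 fell 9.61-fold and ACP3, prostatic acid phosphatase, 8.66-fold. KCNN2, a calcium-activated potassium channel, fell from 197 ± 3.16 to 7.71 ± 2.48 CPM. It was among the 15 largest falls of called protein-coding genes that reached 5 CPM and whose libraries did not overlap. Members not called lower included MAF (0.81) and ZBTB10 (1.02), which were not called in either direction.

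Lineage factors and coregulators of androgen signalling fell more often than they rose, with 13 lower and 3 higher of 20 and a median of -0.581. The pioneer and lineage factors HOXB13 (6.27-fold, from 409 ± 19.9 to 65.3 ± 12.7 CPM), GRHL2 (2.83-fold) and FOXA1 (2.64-fold) fell, as did the corepressor NCOR1 (2.45-fold). NR3C1, the glucocorticoid receptor, rose from 0.948 ± 0.132 to 3.17 ± 0.901 CPM, and CHD1, a chromatin remodeller, rose by 2.03 on the log2 scale. Genes known as repressed by androgen did not move opposite to the induced ones, since 6 of 10 fell and 2 rose (median -0.939). The glucuronosyltransferases UGT2B17 and UGT2B15, which inactivate androgens, fell 4.91-fold and 4.57-fold, although reads of these near-identical paralogs are uncertain. With UGT2B11 of the same family they are among the 6 falls, which are thus not all separate. CAMK2N1, an inhibitor of CaM kinase II, rose 2.53-fold. Of 12 tested genes of androgen synthesis and inactivation 7 fell and none rose (median -1.149), HSD17B4 2.57-fold and SRD5A3 2.25-fold among them. UGT2B17 and UGT2B15 were counted in this list as well. At the same time keratins of luminal cells rose: KRT18 by 0.84 and KRT8 by 0.44 on the log2 scale, the latter with overlapping libraries, and EPCAM by 1.04.

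**Figure D4:**
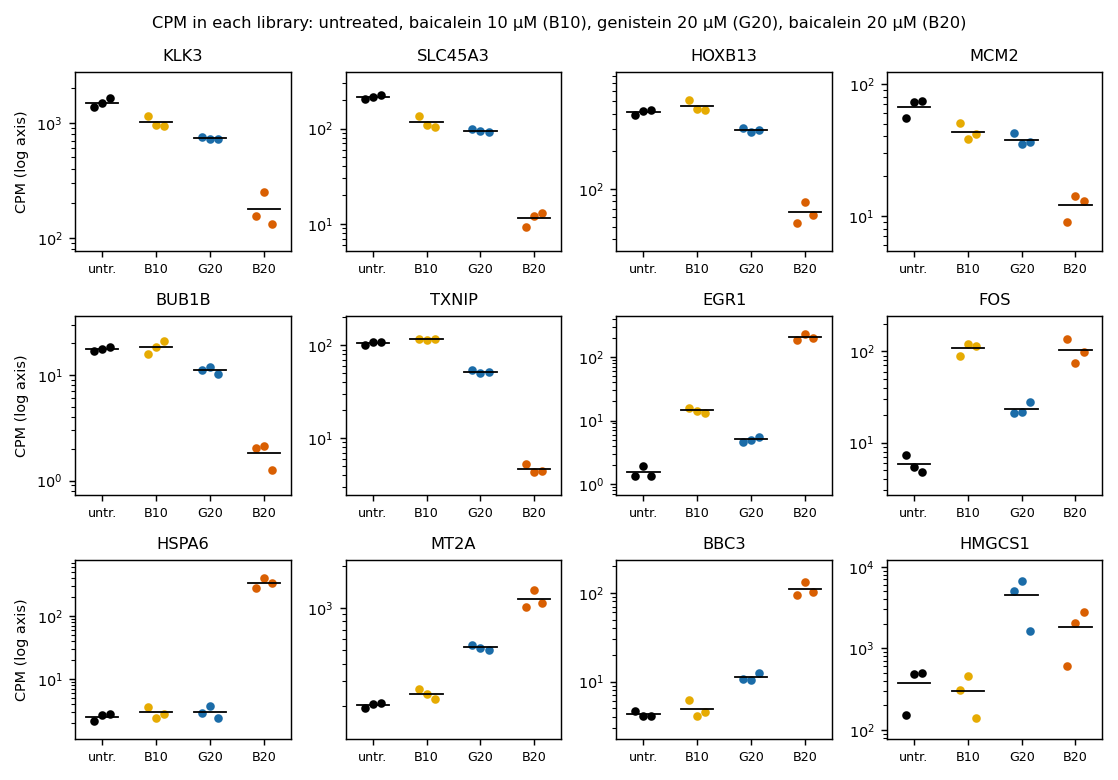
CPM (log axis) of 12 genes in each of 3 libraries of untreated cells (untr.), 10 µM baicalein (B10), 20 µM genistein (G20) and 20 µM baicalein (B20), with the group mean as a bar. BBC3 and HSPA6 at 10 µM baicalein lie near the untreated level, FOS is as high at 10 µM as at 20 µM baicalein, and HMGCS1 is highest in genistein.

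Genes of the cell cycle were lower. Of 42 genes of DNA replication and the G1/S step 32 fell and 1 rose (median -1.261), and of 40 genes of mitosis and G2/M 33 fell and 1 rose (median -1.396; 35 and 0 with totals alone). UHRF1, which keeps DNA methylation through replication, fell 13.5-fold, from 19, 16.3 and 16.5 CPM to 0.966, 1.56 and 1.27 CPM. MCM2, a subunit of the replicative helicase, held 55.5, 72.9 and 73.9 CPM and then 9.08, 14.2 and 13 CPM. POLA2, the accessory subunit of DNA polymerase alpha, fell from 21.1 ± 1.36 to 2.2 ± 1.61 CPM. The helicase subunit MCM5 fell 3.64-fold, the primase PRIM1 4.14-fold and the ribonucleotide reductase subunit RRM1 3.9-fold. In mitosis BUB1B, a kinase of the spindle checkpoint, fell 9.6-fold from 17.6 ± 0.677 to 1.81 ± 0.474 CPM. The kinesins KIF20A and KIF4A fell 8.56-fold and 9.23-fold, the spindle factor TPX2 6.38-fold and the proliferation marker MKI67 6.76-fold. In a list of G1 regulators, which holds D cyclins, CDKs and their inhibitors, the RB family and E2F7 and E2F8, 4 rose and 4 fell of 16. CCND1 fell 4.61-fold, E2F8 fell 6.18-fold, and the inhibitors CDKN1A and CDKN2D rose 6.99-fold and 3.44-fold.

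Promoters of 3 genes of the replication list that hold an E2F site are shown, picked with their values known. These genes had the largest falls among members whose promoter held a match. Only the promoters of these 3 are printed. They are RefSeq sequences of build GRCh38.p14, 250 bases before to 50 after the start, read 5′ to 3′ on the gene's strand. Capitals mark matches, on either strand, to TTTGGCGC, TTTCCCGC, TTTCGCGC or TTTGCCGC, and overlapping matches merge into 1 run. MCM2 lies at chr3:127598161-127598460 (+), POLA2 at chr11:65261712-65262011 (+) and UHRF1 at chr19:4909251-4909550 (+).
MCM2: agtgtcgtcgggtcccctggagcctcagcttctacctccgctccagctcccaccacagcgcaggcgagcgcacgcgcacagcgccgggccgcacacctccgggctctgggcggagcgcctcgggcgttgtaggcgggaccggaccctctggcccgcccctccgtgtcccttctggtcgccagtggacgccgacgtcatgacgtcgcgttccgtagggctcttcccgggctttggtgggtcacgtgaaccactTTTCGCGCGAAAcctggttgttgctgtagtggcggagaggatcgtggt
POLA2: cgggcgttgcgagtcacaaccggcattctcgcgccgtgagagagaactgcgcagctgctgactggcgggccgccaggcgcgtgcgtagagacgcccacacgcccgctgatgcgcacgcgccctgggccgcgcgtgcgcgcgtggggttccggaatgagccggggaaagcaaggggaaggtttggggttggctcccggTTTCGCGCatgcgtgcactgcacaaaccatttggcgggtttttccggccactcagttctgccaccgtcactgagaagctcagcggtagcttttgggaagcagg
UHRF1: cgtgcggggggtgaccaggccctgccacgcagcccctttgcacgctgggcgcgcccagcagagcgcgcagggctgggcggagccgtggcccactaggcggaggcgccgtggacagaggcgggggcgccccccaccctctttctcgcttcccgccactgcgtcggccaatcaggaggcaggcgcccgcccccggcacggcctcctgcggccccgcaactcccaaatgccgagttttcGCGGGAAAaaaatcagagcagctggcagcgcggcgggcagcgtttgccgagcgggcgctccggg
Such a match stood in 20 of the 37 replication promoters present in the table and in 3.33% of all 27305 promoters of this length, a description of the letters and not of binding. Of the genes with a match GINS1, GINS3, PCNA and TYMS were not called, and RRM1, RRM2 and CDC45 fell with none in this window.

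Repair genes that work during replication fell with them. Of 36 tested genes of homologous recombination and the Fanconi pathway 25 fell and 3 rose (median -1.201). FANCI, which is ubiquitinated together with FANCD2 at blocked forks, fell from 42.9 ± 4.61 to 9.42 ± 0.629 CPM. FANCA, a subunit of the ligase complex acting on it, fell 4.89-fold, UBE2T, the conjugating enzyme, 3.39-fold and XRCC3 3.92-fold. BRCA1 fell 3.01-fold and BRCA2 2.6-fold. RAD51C and RBBP8 rose, by 0.89 and 0.87 on the log2 scale. The list of end joining, excision repair and checkpoints gave 22 falls and 14 rises of 50 (median -0.265), and 28 falls and 5 rises with totals alone (median -0.561). PARP1 stood at 322, 393 and 369 CPM in untreated and 36.1, 50.5 and 48.1 CPM in treated libraries, an 8.05-fold fall with no overlap. CLSPN, the adaptor of checkpoint kinase 1, fell 19.9-fold and POLQ 4.56-fold. XPC, a damage sensor of nucleotide excision repair, rose by 1.33 and the checkpoint kinase WEE1 rose 3.48-fold. Counts of replication-dependent histones did not follow the replication list: 14 of the 20 tested rose and 1 fell (median 0.983). The kit selects RNA with a poly(A) tail, so histone mRNA without such a tail is not covered by these counts. H4C8 rose from 34.8 ± 1.04 to 200 ± 11.4 CPM and H2BC11 7.65-fold, with the caveat that histone genes are near-identical copies.

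Targets of p53 were higher, with 23 of 26 called higher and 1 lower (median 1.525; 17 higher and 1 lower with totals alone). LNCaP cells are known to keep a functional p53. BBC3, which encodes the apoptosis inducer PUMA, went from 4.72, 4.16 and 4.08 CPM to 95.1, 131 and 102 CPM. This was a 25.3-fold rise (log2 fold change 4.66 ± 0.20 SE, adjusted p = 2.14e-09). CDKN1A, the cell cycle inhibitor p21, held 156, 165 and 171 CPM untreated and 978, 1380 and 1087 CPM treated. AEN, an apoptosis-enhancing nuclease, rose 8.91-fold, SESN2, a stress-induced regulator of mTORC1, 8.26-fold and the death receptor gene TNFRSF10B 4.44-fold. MDM2, the ligase that degrades p53, rose 2.86-fold. TP53INP1 was the single fall, 2.59-fold. In the BCL2 family 10 rose and 4 fell of 17 (median 0.752). The proapoptotic HRK rose 5.72-fold and BAX 2.28-fold, while the proapoptotic BMF fell 2.7-fold and the antiapoptotic BCL2L1 fell by 1.10 on the log2 scale. Antiapoptotic MCL1 rose 3.32-fold, but unevenly, with 852, 321 and 916 CPM in the treated libraries.

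Immediate early genes, which growth factor and stress signals switch on without new protein synthesis, were higher: 22 of the 22 tested rose (median 2.712), and 21 with totals alone. EGR1 went from 1.35, 1.96 and 1.32 CPM to 184, 228 and 196 CPM, a 131-fold rise (log2 fold change 7.04 ± 0.18 SE, adjusted p = 4.13e-11). IER5 rose 14.8-fold, ZFP36, which marks AU-rich mRNAs for decay, 7.81-fold and CCN1 5.99-fold. JUN was uneven before treatment, at 40.3, 5.26 and 42.1 CPM, and reached 474, 620 and 508 CPM. FOS rose 17.7-fold, from 5.82 ± 1.33 to 103 ± 32 CPM. Feedback genes of the MAPK pathway parted: of 12 tested 7 rose and 2 fell (median 1.009). The phosphatase genes DUSP5, DUSP4 and DUSP6 rose 23-fold, 2.25-fold and 4.92-fold. SPRY4, a Sprouty inhibitor of receptor tyrosine kinase signalling, fell from 40.9, 44 and 49.8 CPM to 0.676, 0.739 and 0.844 CPM, 59.1-fold.

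Among genes of NF-kB and the cytokines 12 of the 15 tested rose and none fell (median 2.644; 12 and 1 with totals alone). RELB, a subunit of the noncanonical NF-kB dimer, rose 25.2-fold from 1.76 ± 0.0844 to 44.4 ± 7.59 CPM, NFKB2, its partner, 6.25-fold, and TNFAIP3, a deubiquitinase that limits the pathway, 13.9-fold. IRF1 rose 12.2-fold. The chemokine CXCL8 was near the floor untreated, at 0.104, 0.122 and 0.115 CPM, and stood at 18.2, 18.1 and 21.4 CPM treated. TNF had 1 count over the untreated libraries and 219 over the treated ones, a ratio of 363 with an exact 95% counting interval of 64.4 to 14392. Genes stimulated by interferon did not share this direction, with 5 higher and 6 lower of 19 (median -0.021). These 26.3% and 31.6% lie near the 29.4% higher and 27.8% lower of all genes tested. STAT2 fell 2.9-fold and OAS3 3.18-fold, while IRF7 rose 2.76-fold.

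All 6 tested genes of the metallothioneins and the zinc response rose (median 2.484). Metallothioneins are small cysteine-rich proteins that bind zinc and copper. MT2A held 192, 204 and 210 CPM untreated and 1019, 1332 and 1090 CPM treated (5.68-fold, adjusted p = 7.34e-09). MT1X rose 9.48-fold from 58.5 ± 0.714 to 554 ± 98.2 CPM, MT1G 5.52-fold and MT1F 5.18-fold; the metallothionein genes are similar enough that their split is uncertain. SLC30A1, a zinc exporter, stood at 111, 69.2 and 77.7 CPM and then at 1558, 567 and 1028 CPM. The metal-sensing factor MTF1 rose 1.58-fold. Of 10 tested genes of iron uptake and storage 2 rose and 3 fell (median -0.296, and 0 and 3 with totals alone). These 20.0% and 30.0% stand beside 29.4% and 27.8% of all genes tested. ACO1, an iron-regulatory protein, fell 1.99-fold, and SLC11A2, an iron importer, was called 2.41-fold lower but not without treated library 1 or 3 (adjusted p = 0.061412 and 0.077425).

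Heat shock and chaperone genes were 11 higher and 2 lower of 17 (median 1.17; 9 and 4 with totals alone). HSPA6, an inducible HSP70 that is nearly silent in unstressed cells and was not on that list, went from 2.18, 2.63 and 2.76 CPM to 284, 404 and 331 CPM. The rise was 135-fold (log2 fold change 7.07 ± 0.22 SE, adjusted p = 1.53e-10). HSPA1B rose 6.64-fold, from 91.1 ± 1.78 to 605 ± 77.2 CPM, and cannot be cleanly separated from its near-identical copy HSPA1A. The small heat shock proteins HSPB8 and CRYAB rose 23.9-fold and 16.1-fold from about 1 CPM, the cochaperones BAG3 and DNAJB1 3.7-fold and 5.58-fold. Of the constitutive chaperones HSPA8 fell by 0.86 on the log2 scale, and HSP90AA1 (0.18) and HSPD1 (-0.15) were not called. SQSTM1, the autophagy receptor p62, rose 4.49-fold.

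Promoters of the metal genes and of HSPA6 are printed because the elements of the corresponding stress factors can be read in them. Their source, span and strand are as above: MT2A is at chr16:56608334-56608633 (+), MT1X at chr16:56682220-56682519 (+), SLC30A1 at chr1:211579112-211579411 (-) and HSPA6 at chr1:161524290-161524589 (+). Capitals in the first 3 mark the metal response core TGCACNC or TGCGCNC on either strand, and in HSPA6 the heat shock element, read as inverted GAA units at fixed spacing.
MT2A: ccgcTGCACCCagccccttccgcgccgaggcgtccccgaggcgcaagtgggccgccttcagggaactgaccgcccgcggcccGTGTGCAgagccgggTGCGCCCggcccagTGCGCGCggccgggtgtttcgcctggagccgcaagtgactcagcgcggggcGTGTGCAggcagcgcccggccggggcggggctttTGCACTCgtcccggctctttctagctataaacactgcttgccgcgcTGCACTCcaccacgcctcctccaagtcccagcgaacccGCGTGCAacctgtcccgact
MT1X: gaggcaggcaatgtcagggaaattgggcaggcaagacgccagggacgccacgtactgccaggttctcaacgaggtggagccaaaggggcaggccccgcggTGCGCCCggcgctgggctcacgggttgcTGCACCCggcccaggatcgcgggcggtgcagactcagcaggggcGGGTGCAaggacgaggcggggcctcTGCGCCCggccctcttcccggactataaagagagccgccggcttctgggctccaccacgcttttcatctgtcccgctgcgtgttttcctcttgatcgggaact
SLC30A1: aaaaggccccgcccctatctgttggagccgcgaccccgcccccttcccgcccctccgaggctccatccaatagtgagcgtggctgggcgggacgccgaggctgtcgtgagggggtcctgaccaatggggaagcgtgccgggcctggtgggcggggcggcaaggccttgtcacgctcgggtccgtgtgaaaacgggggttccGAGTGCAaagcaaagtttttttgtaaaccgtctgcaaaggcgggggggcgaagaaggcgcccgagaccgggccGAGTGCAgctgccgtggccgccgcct
HSPA6: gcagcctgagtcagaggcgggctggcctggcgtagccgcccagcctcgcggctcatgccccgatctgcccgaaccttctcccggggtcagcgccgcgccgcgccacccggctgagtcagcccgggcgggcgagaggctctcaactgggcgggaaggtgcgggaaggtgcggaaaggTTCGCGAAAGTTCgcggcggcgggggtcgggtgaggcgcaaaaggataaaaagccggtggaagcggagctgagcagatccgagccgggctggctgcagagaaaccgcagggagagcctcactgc
The capitals form 8 runs in MT2A, 4 in MT1X, 2 in SLC30A1 and 1 in HSPA6. At least 1 metal core was found in 29.3% of all 27305 promoters and at least 2 in 7.56%, so a single core is common. The heat shock element stood in 0.487% of all promoters and in 3 of the 15 promoters of the heat shock list in the table. These 3 were HSPA8, which fell, DNAJA1, which rose 1.49-fold, and CHORDC1, which was not called. No match to this exact pattern was found in the promoters of HSPA1A, HSPA1B, DNAJB1, BAG3, HSPB1 or HSPB8, all of which rose. Elements with a mismatched unit or outside this window were not looked for, so these promoters cannot be said to lack one.

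Most genes of cholesterol synthesis and uptake rose, and those of fatty acid synthesis were split. Of 24 tested cholesterol genes 18 rose and 1 fell (median 1.424; 17 and 2 with totals alone). MVD, MVK and FDPS, enzymes of the mevalonate pathway, rose 5.73-fold, 5.01-fold and 4.67-fold, and FDFT1, the first committed enzyme towards sterols, 2.92-fold. HMGCS1, an early enzyme of the pathway, spread widely within both groups, with 155, 486 and 494 CPM untreated and 613, 2045 and 2774 CPM treated, yet without overlap. INSIG1, which retains the SREBP complex in the endoplasmic reticulum, stood at 220, 238 and 278 CPM and then at 2816, 464 and 2128 CPM. SREBF2, a factor that drives these genes, was not called (-0.12). Of 14 genes of fatty acid synthesis 4 rose and 7 fell (median -0.513; 2 and 10 with totals alone). ACACA, acetyl-CoA carboxylase, fell 2.98-fold, ACLY, ATP citrate lyase, 2.33-fold and SREBF1 1.58-fold, whereas the elongase ELOVL6 rose 2.14-fold. FASN was not called (-0.26).

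Stress responses of translation and redox moved in part. Of 25 genes that ATF4 is known to induce when amino acids run short, 12 were called higher and 5 lower (median 0.426; 12 and 8 with totals alone). DDIT3, the factor CHOP, held 69.8, 75.6 and 68.5 CPM untreated and 659, 938 and 807 CPM treated, an 11.2-fold rise. CEBPB rose 8.04-fold and SLC3A2, the heavy chain of amino acid exchangers, 3.8-fold. PPP1R15A, which lets translation resume, rose 16.3-fold. Classical amino acid enzymes did not: PSPH and PHGDH of serine synthesis fell, by 1.62 and 0.67 on the log2 scale, and ASNS (-0.43) was not called. A CHOP-ATF4 element, TGATGNAA on either strand, stood in 5 of 20 promoters of this list and in 3.67% of all; ATF3 and SLC3A2 among them rose, SLC7A1 fell, and ASNS and CHAC1 were not called. In the unfolded protein response 10 rose and 5 fell of 22 (median 0.336), against 7 and 7 with totals alone (median 0.033), with the sensor ERN1 up 2.83-fold, XBP1 up 1.83-fold and the disulfide isomerase PDIA4 down 2.25-fold.

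Among NRF2 antioxidant targets 10 rose and 3 fell of 19, against 4 and 5 with totals alone. HMOX1, heme oxygenase, went from 18.8, 23.2 and 22.9 CPM to 105, 155 and 116 CPM. OSGIN1 rose 4.37-fold and GCLM, the regulatory subunit of glutathione synthesis, 4.96-fold. NQO1, a quinone reductase often used as the marker of this response, rose 1.36-fold and was not called with totals alone. GSR, glutathione reductase, fell 2.37-fold. TXNIP, the inhibitor of thioredoxin and of glucose uptake, was one of the largest falls in the data: 100, 110 and 107 CPM untreated against 5.22, 4.35 and 4.43 CPM treated (22.7-fold, adjusted p = 4.13e-11). Its list of 9, with the thioredoxins and other alpha-arrestins, gave 3 rises (TXN, ARRDC2 and TXNRD1) and 3 falls, and with totals alone 0 rises and 4 falls. Each main count is 33.3% of the list, near the 29.4% and 27.8% of all genes tested. Of 8 tested genes of the aryl hydrocarbon receptor, which binds many flavonoids, 4 rose and 2 fell. AHR rose 5.12-fold and TIPARP, one of its targets, 3.65-fold, but CYP1A1, the classical target, fell 2.84-fold from 4.04 ± 1.06 to 1.42 ± 0.466 CPM.

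Glycolysis and hypoxia targets gave 15 falls and 6 rises of 28 (median -0.483). The enzymes PKM, PGK1 and PFKP fell 2.02-fold, 1.89-fold and 2.11-fold and LDHA 2.71-fold, while VEGFA, an angiogenic target of hypoxia factors, rose 2.82-fold and GAPDH was not called (0.07). In the MYC network and ribosome biogenesis 15 fell and 6 rose of 30 (median -0.404). POLR1A and POLR1B, the large subunits of RNA polymerase I, fell 3.66-fold and 2.36-fold and the biogenesis factors WDR12 and BOP1 2.61-fold and 2.21-fold. Cytosolic ribosomal proteins, by contrast, gave 44 rises and 2 falls of 76 with a median of 0.399, but only 11 and 3 with totals alone (median 0.106). RPS19 rose 1.94-fold and RPLP2 1.81-fold. The elongation factors EEF1A1 and EEF2 fell, 1.49-fold and 1.31-fold, and EEF2 was not called without treated library 1 or 3 (adjusted p = 0.058501 and 0.058966). In the polyamine list 3 fell and 2 rose of 11 (4 and 1 with totals alone). These 27.3% and 18.2% stand beside 27.8% lower and 29.4% higher of all genes tested. AMD1, the decarboxylase that feeds spermidine synthesis, fell 4.48-fold from 594 ± 45.5 to 133 ± 5.75 CPM. The proteasome gave 8 rises and 6 falls of 31 (2 and 7 with totals alone), which is 25.8% and 19.4%. The list of lysosome and autophagy genes gave 5 and 11 of 26 (2 and 13 with totals alone), 19.2% and 42.3%. In it MAP1LC3B rose 5.31-fold and GAA, acid glucosidase, fell 2.64-fold.

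Genes of transcription and splicing control rose more often than they fell, to a degree that turned on the scaling. Of 26 genes of transcription elongation, which hold P-TEFb and its HEXIM inhibitors, the BET readers, NELF, DSIF, the super elongation complex and further transcriptional kinases, 16 rose and 3 fell (11 and 7 with totals alone). The cyclin CCNK rose 2.14-fold and the kinases CDK7 and CDK13 2.63-fold and 2.17-fold. HEXIM1 rose 1.33-fold, from 93.2 ± 2.96 to 124 ± 3.18 CPM, and was not called with totals alone. RNA polymerase II and general factors gave 21 rises and 6 falls of 36 (8 and 9 with totals alone). POLR2A, the catalytic subunit, fell 2.37-fold from 111 ± 5.39 to 46.8 ± 8.43 CPM, and TAF5 and TAF7, subunits of TFIID, rose 3.86-fold and 2.74-fold. Among CLK kinases, SR proteins and hnRNPs 14 rose and 4 fell of 31 (9 and 5 with totals alone). CLK1, a kinase of SR proteins, stood at 43.3, 40.3 and 41.2 CPM untreated and 546, 352 and 481 CPM treated, an 11-fold rise, and CLK4 rose 5.92-fold. Of the 20 long noncoding RNAs listed, several of them hosts of small nucleolar RNAs, 9 rose and 5 fell. SNHG12 and ZFAS1, hosts of small nucleolar RNAs, rose 4.41-fold and 4.02-fold, SCHLAP1, a prostate cancer lncRNA, fell 3.52-fold and NEAT1, the scaffold of paraspeckles, 3.38-fold. MALAT1 spread from 26.3 to 272 CPM within the treated group and was not called.

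Many of the protein-coding genes that changed by the largest folds, 15 in each direction among those at 5 CPM or more, stood in none of these lists. LURAP1L rose 104-fold, from 0.751 ± 0.159 to 79.2 ± 12.8 CPM. HMX3, a homeobox gene, stood at 17 ± 2.14 CPM against 0.0884 ± 0.107 untreated. TNFRSF9, a costimulatory receptor of the TNF family, had 2 counts untreated and 428 treated, a ratio of 354 with a counting interval of 97.5 to 2936. NWD2 had no count in the untreated libraries and was at least 94.4-fold higher, taking 3 counts over the group as the floor. It could thus pass the filter on low counts only through libraries of other groups. PLA2G4C, a phospholipase A2, and DNAH17, an axonemal dynein, stood at 8.19 ± 1.09 and 8.86 ± 1.72 CPM from under 0.2 CPM in the mean of the untreated libraries. Falls of this size included STUM (51.4-fold), GPER1, a membrane receptor of oestrogen (34.9-fold), SLC6A19, a transporter of neutral amino acids (36.7-fold), and ADAMTS1, a secreted metalloprotease, from 439 ± 31.3 to 19.8 ± 12.1 CPM. By CPM lost, PRUNE2 fell from 903 ± 96.5 to 63.7 ± 7.7 CPM; the noncoding PCA3 lies antisense within it, and without strand their reads cannot be told apart. The extracellular matrix gene FN1 fell 6.81-fold, the tubulin TUBB 4.91-fold and SPON2, a secreted spondin, 3.55-fold.

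Smaller lists were split. Of 13 tested genes of the YAP and TEAD pathway, regulators and factors as well as targets, 5 rose and 4 fell, LATS2, a kinase that restrains YAP, 5.13-fold higher and the coactivator WWTR1 3.91-fold lower. Of 17 tested genes of heparan sulfate and proteoglycans 3 rose and 7 fell. SDC4 rose 3.97-fold and SDC1 fell 2.96-fold, so that these syndecans went opposite ways. With 9 of 13 and 10 of 17 called, these lists stand beside 57.2% called of all genes.

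Luminal markers were present at a reduced level, and markers of other cell types had low sums, with some single markers called higher and others lower. Summed over 12 luminal markers, of which 8 fell and 3 rose, untreated libraries held 4680 to 4986 CPM and treated ones 1818 to 1857 CPM. Neuroendocrine markers summed to 26.3 to 30.4 CPM untreated and 13.9 to 20.7 CPM treated, with SYP and ENO2, the 2 that were tested, both lower. Immune markers summed to 1.45 to 2.53 and 2.85 to 4.25 CPM, with CD14 called higher (0.097 to 1.41 CPM), and endothelial markers to 7.37 to 8.50 and 8.02 to 12.2 CPM, with ESAM 2.21-fold higher, 1 of 3 tested (1 higher and 2 lower with totals alone). Fibroblast markers summed to 14.8 to 16.6 and 23.1 to 32.0 CPM, the difference lying in the smooth muscle actin ACTA2, which rose 22-fold from 0.511 ± 0.155 to 11.4 ± 3.08 CPM. Of the 3 tested 1 rose and 1 fell. The fall was the collagen COL3A1, whose call was lost without treated library 1 or 2 (adjusted p = 0.070341 and 0.080154), and COL1A1 was not called. Basal markers summed to 26.2 to 31.2 and 22.6 to 76.9 CPM, and 2 of the 4 tested rose and none fell. LAMB3, a laminin chain, rose 8.48-fold from 0.734 ± 0.0447 to 6.28 ± 1.46 CPM and S100A2 2.65-fold from 0.454 ± 0.103 to 1.21 ± 0.251 CPM. Treated library 1 alone held 60.9 CPM of ITGA6 against 8.78 and 8.12 CPM in the others; with it the gene was not called, and without it ITGA6 was lower by 1.25 on the log2 scale (adjusted p = 1.5456e-05). Markers of PC-3, the other cell line of the series, summed to 955 to 1020 CPM untreated and 173 to 177 CPM treated, most of it FN1, while VIM, the filament vimentin, rose 3.43-fold to 21.2 ± 0.835 CPM and ANXA1 2.12-fold. The part of other cells in any result was not tested.

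The treated libraries were less alike than the untreated ones. Of 3929 genes called higher with every treated library at 5 CPM or more, 622 had a highest treated library more than 2 times the lowest. In 525 of these treated library 2 was the lowest and in 46 it was the highest. Over all 4992 genes called higher it was the highest of the 3 in 2435 and the lowest in 1767, so its low place held for the genes with a wide spread and not for all. GEM, a small GTP-binding protein, showed it at 136, 24.2 and 101 CPM, as did SLC38A2, an amino acid transporter, at 2813, 1142 and 1787 CPM and SPTSSA, a subunit of serine palmitoyltransferase, at 2698, 693 and 1679 CPM. The same library had the highest mitochondrial share, 14.5%. Without it 9659 genes were called, and the difference in mitochondrial share was 6.375 points in place of 7.38.

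Many genes differed between the doses. Against 10 µM baicalein, 20 µM called 9235 genes (54.4%), 4556 higher (26.8%) and 4679 lower (27.5%); scaled by totals alone the split was 3326 higher and 5786 lower. This comparison uses the same 20 µM libraries as the one with untreated cells, so the values are set side by side and not counted as separate evidence. Median log2 fold changes of 20 over 10 µM were -1.619 for the androgen-induced list (1 higher, 19 lower of 23), -1.338 for mitosis, 1.508 for p53 targets, 2.215 for the zinc list and 1.423 for cholesterol, against 0 for all genes tested. HSPA6 stood at 2.94 CPM in 10 µM and BBC3 at 4.98 CPM. Immediate early genes differed from this in part, 19 of 22 being higher at 20 µM than at 10 µM. FOS had already reached 108 CPM at 10 µM, and the difference of the doses was -0.07 on the log2 scale with an adjusted p of 0.8. FOSB, its close relative, was at 5.66 CPM in 10 µM and 3.98 CPM in 20 µM (adjusted p = 0.12). EGR1 lay between, at 14.4 CPM.

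At the matched dose and time, 20 µM baicalein differed from 20 µM genistein, the flavone from its isoflavone isomer, in 8278 genes (48.7%), 3962 higher (23.3%) and 4316 lower (25.4%) in baicalein. With totals alone 3020 were higher and 5049 lower. It is the only pair of compounds compared here at a matched dose. Of the cholesterol genes 1 was higher and 12 lower in baicalein of 24 (median -0.48). FDFT1 stood at 727 CPM in baicalein and 1336 CPM in genistein, FDPS at 525 and 743 CPM, and MVD at 210 and 200 CPM, a difference of 0.07 on the log2 scale (95% interval -0.21 to 0.36) that was not called (adjusted p = 0.66). Of the 14 fatty acid genes 12 were lower in baicalein (median -1.306), with ACLY at 146 against 574 CPM and SCD, the stearoyl-CoA desaturase, at 1049 against 2718 CPM. Heat shock genes were 10 higher and 3 lower in baicalein, with HSPA6 at 340 against 2.99 CPM. All 6 zinc genes were higher in baicalein (median 1.335); MT2A held 521 CPM in genistein. Androgen-induced genes were 18 lower and none higher in baicalein, with SLC45A3 at 11.4 against 94.9 CPM. CYP1A1 was one of the genes lower in genistein, at 0.602 CPM against 1.42 CPM.

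Some genes at or near 0 in the other LNCaP groups compared here were detected in 20 µM baicalein. They were picked for their large differences from both 10 µM baicalein and 20 µM genistein. Those with no untreated count could pass the filter on low counts only through other groups. Their low levels elsewhere were thus in part set by this choice and are not separate evidence. TLR9, an endosomal sensor of DNA, had no count in untreated libraries and was listed at 0 CPM in 10 µM baicalein and 20 µM genistein as well, against 3.09, 3.86 and 1.69 CPM in 20 µM baicalein. Over the floor of 3 counts it was at least 52.5-fold higher than untreated. TMPRSS12, a serine protease, was at least 45.8-fold higher, MMP8, neutrophil collagenase, at least 23.2-fold and CNGA3, a cyclic nucleotide-gated channel, at least 16.6-fold. DESeq2 did not call TLR9, TMPRSS12, MMP8 or CNGA3 (adjusted p = 0.15439, 0.16156, 0.22796 and 0.093861). In the other direction GTF2IP4, a pseudogene of GTF2I whose reads are uncertain, held 8, 8.19 and 8.44 CPM untreated and no count treated, at least 87.5-fold lower; its call was lost without any 1 of the treated libraries (adjusted p = 0.050663 to 0.05481).

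Structure of the gene went with the direction of change. Over 12835 protein-coding genes 31.4% rose and 28.0% fell. Ordered by number of exons and divided into 5 groups of equal size, the median log2 fold change ran from 0.294 for the fewest exons through 0.185, 0.094 and -0.075 to -0.194 for the most. By transcript length it ran from 0.241 for the shortest group to -0.119 for the longest. By GC content it was 0.328 in the lowest group, -0.116 in the next to highest and 0.001 in the highest. Scaling by totals alone moved all groups down, to 0.002 and -0.484 at the ends for exons, and kept the order for exons and length. These are descriptions across genes, which are not independent replicates, and exon number, length and GC content go together.

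**Figure D5:**
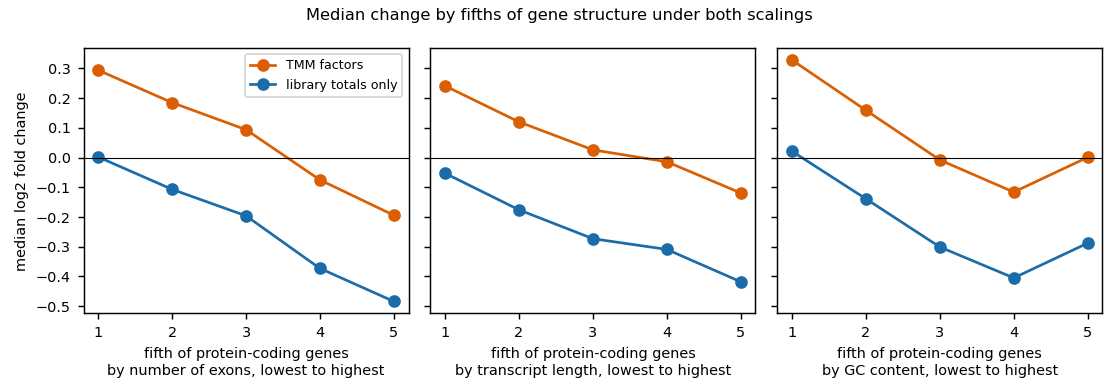
Median log2 fold change of 20 µM baicalein over untreated (vertical axis) in 5 equal groups of protein-coding genes by exon number, transcript length and GC content (horizontal axes, lowest to highest), with TMM factors (orange) and with library totals only (blue). For exons the median falls from 0.294 to -0.194 with TMM factors and from 0.002 to -0.484 with totals only.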

How the data were processed

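Gene-level read counts were taken from a table that the authors deposited, with a column of raw counts for each of the 18 libraries. Per the submitters' processing notes, the tools named are STAR 2.7.6a and fastp, featureCounts 1.6.4 for counting, DESeq2 1.20.0, and build GRCh38; parameters are not given in the sources used here. Another 18 per-sample columns of FPKM values were not used. The columns were assigned to samples by their names.

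In R 4.3.3, edgeR 4.0.16 (with limma 3.58.1) was run on the counts as deposited of the 15 LNCaP libraries in 1 fit with 10 residual degrees of freedom, after filterByExpr (16985 of 63241 genes kept) and TMM scaling; the common biological coefficient of variation was 0.235. Contrasts of 20 µM baicalein were tested by quasi-likelihood with Benjamini-Hochberg adjustment (adjusted p under 0.05 called). TMM factors were 0.8112 to 0.9245 in the treated and 1.046 to 1.094 in the untreated libraries. Single values were compared by exact permutation over libraries. Alternatives were DESeq2 1.42.0, RLE factors, library totals alone, no or a stricter filter on low counts, only the 2 groups compared, no mitochondrial genes, a GC content and length correction, a replicate block and leaving out each library. Scripts were tested on simulated data. Replicate libraries differed by more than sampling noise (chi-square per degree of freedom 17.0 to 97.6), so none were merged. Gene types, lengths and GC content came from GENCODE release 29 and promoters from RefSeq. Counting intervals (95%) and the floor of 3 counts cover counting error only.

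The comparison and its 50 gene lists were chosen with earlier results of these data known. Named were the 15 largest rises and falls among called protein-coding genes of at least 5 CPM whose libraries do not overlap, the 10 largest rises and falls in CPM outside mitochondrial genes, up to 4 members of each list by adjusted p, all mitochondrial mRNAs and rRNAs, fixed genes of interest, and up to 10 genes that differed most from both 10 µM baicalein and 20 µM genistein. Other list members, MCM2, POLA2 and SLC30A1 with their promoters among them, were named after their values were seen.
A few genes are not reported here.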

Additional observations from a re-analysis of the deposited data

How the results depend on the processing

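The number of genes called against untreated cells lay between 8556 (only the 2 groups compared) and 10560 (GC content and length removed), with 10464 in DESeq2, 9707 with RLE factors, 9501 with totals alone, 10212 without and 9401 with a stricter filter on low counts and 9674 without mitochondrial genes. Leaving out each library gave 8846 to 9659, and 8477 to 9147 and 7360 to 8279 against 10 µM baicalein and 20 µM genistein; the mitochondrial difference was then 6.375 to 8.339 points, 5.552 for mRNAs only and 6.133 over protein-coding counts. With the replicate number as a block 9339, 8764 and 7782 genes were called and no named gene lost its call. In their deviations from the group mean, same-numbered treated and untreated libraries correlated at 0.36, 0.31 and 0.05. Those of unlike number correlated at -0.38 to 0.12, and each treated library correlated most with the untreated library of its own number. The labels do not say whether equal numbers mark pairs, and the main fit did not pair them. Of 250 named genes called, 228 kept their call in every alternative that tested them. Some were not tested in every alternative, among them the mitochondrial genes in the run that left these out. Signs turned for ITGA6 (-0.0015103), COL1A1 (-0.1803), GAPDH (-0.22304) and MALAT1 (-0.073003) with totals alone, GAPDH without a filter (-0.0032326), VWF with the GC content and length trend removed (0.0051323), and on leaving out 1 library, where the values ran from -0.046363 to 0.1422 for GAPDH, from -0.71499 to 0.90162 for MALAT1 (-0.097283 without untreated library 2), from -0.012316 to 0.16781 for COL1A1 and from -1.2524 to 0.78494 for ITGA6. None of these was called with all libraries. ACTB (1.31-fold higher) lost its call in most alternatives. Low CPM limits the genes near 1 CPM, where a library adds few counts.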

Other observations

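Some gene families outside the fixed lists were noticed in the results and are described here with counts only. They were not counted with totals alone. Of 40 clustered protocadherin genes tested, which encode neuronal adhesion molecules from 3 neighbouring arrays on chromosome 5, 32 fell and none rose in 20 µM baicalein against untreated cells (median log2 fold change -2.666, against 0.038 for all genes tested). PCDHB5, the most abundant, held 39.3, 38.8 and 37 CPM untreated and 6.18, 5.01 and 4.96 CPM treated, with 28.8 CPM in 10 µM baicalein and 25.3 CPM in 20 µM genistein. PCDHB8 and PCDHGA3 fell 24.4-fold and 28.7-fold. Members of these arrays share sequence, and the gamma genes share their last exons, so the split between them is uncertain.

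Zinc finger genes with a ZNF symbol rose more often than they fell. Of 264 on chromosome 19, 98 (37.1%) rose and 38 (14.4%) fell (median 0.491). Of 254 on other chromosomes 100 (39.4%) rose and 36 (14.2%) fell (median 0.409). Over all genes tested 29.4% rose and 27.8% fell. ZNF77 and ZNF165 rose by 4.03 and 3.33 on the log2 scale, while ZNF573 fell by 2.89. Host genes of small nucleolar RNAs with an SNHG symbol gave 14 rises and 4 falls of 26 (median 0.558), SNHG1 from 26.8 ± 2.04 to 120 ± 17.8 CPM (SD, n = 3). Several of these, SNHG1 and SNHG12 among them, were also counted in the list of long noncoding RNAs. TRIM49D1 and TRIM49D2, near-identical copies on chromosome 11, fell 22.3-fold and 24.9-fold.

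CCNT2, a cyclin of P-TEFb, stood at 20, 8.62 and 6.95 CPM untreated and at 424, 24.1 and 13.1 CPM treated, so that its mean of 154 CPM rests on treated library 1. MYC stood at 10.7, 18.8 and 70.5 CPM untreated and 11.8, 4.27 and 4.74 CPM treated, and its call (4.81-fold lower) came with overlapping libraries.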
